A study of Mus musculus with 2 samples.

Results

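The canonical histone genes of the mouse lie in gene clusters and carry symbols that begin with Hist1h, Hist2h, Hist3h or Hist4h. All protein-coding genes with such a symbol in the GENCODE M21 annotation were taken as members. The annotation holds 67 of them, and 64 have a value here, of 43346 genes and 21474 protein-coding genes in the tables. Hist1h2bh, Hist1h2bm and Hist2h2bb were not analysed here. By family, 6 members encode the linker histone H1, 18 encode H2A, 15 H2B, 12 H3 and 13 H4.

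The RNA came from midbrain of healthy B6NCrl mouse embryos at embryonic day 13.5. Both libraries belong to 1 group, total RNA from whole dissected tissue, and no second tissue, age or treatment is included. Each library is a separate biosample of pooled male and female embryos and carries 1 of the biological replicate numbers 1 and 2. The labels give 10 ng of RNA longer than 200 nt with spike-ins as the input, and name an Ambion mirVana extraction and the manual of a SMARTer low-input kit. The depth was 32151659 estimated reads in replicate 1 and 41915240 in replicate 2, and spike-ins took 2.22% and 4.06% of the reads. Neurons, progenitors and midbrain cells were represented by their markers, with 3 of 3, 4 of 4 and 5 of 5 detected at medians of 726, 154 and 8.98 TPM (transcript abundance per length and library). Markers of blood and vessels were also present: 5 of 5 erythroid, 3 of 3 microglial, 3 of 3 endothelial and 3 of 3 meningeal genes were detected, and the erythroid genes summed to 3477 and 3439 TPM. Their part in the histone values was not tested.

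Core histones H2A, H2B, H3 and H4 form the octamer around which DNA wraps, and H1 binds the linker DNA between octamers. The cluster genes are the replication-dependent histone genes: most are intronless, are transcribed mainly during S phase through the NPAT pathway, and end their mRNAs in a stem-loop instead of a poly(A) tail. The stem-loop is bound by SLBP, and the 3′ end is cut by a machinery that contains the U7 small nuclear RNP. Replacement histones, such as those of H3f3a, H3f3b, H2afz and H1f0, come from genes outside the clusters with polyadenylated mRNAs and are made throughout the cell cycle. In the annotation, 59 of the 64 members have a single exon in every transcript, and Hist1h2bc, Hist1h2be, Hist1h2bp, Hist1h2bq and Hist1h2br have transcripts with more. The embryonic midbrain holds both dividing progenitors and neurons that have left the cycle.

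The stem-loop was searched for first, since it sets how these mRNAs end. Its letters (first arm GGNNCT, loop TNTN and second arm AGNNCC without gaps, N being any base), on the gene strand and within 300 nt after the stop codon of a GENCODE M21 transcript, occurred in 44 of the 50 members that have an annotated tail of at least 16 nt. Over all protein-coding genes with such a tail, 54 of 20623 (0.262%) held them. In the forms below the 6 bases of each arm of the stem are in capitals and the 4 loop bases in lower case. They are shown because they cover most of the 44 members and because the arm letters differ by family: all H4 members with the stem-loop had GGCCCT or GGTCCT as the first arm, and all members of the other families had GGCTCT.
24 members, among them Hist1h2ap, Hist3h2ba and Hist1h1e: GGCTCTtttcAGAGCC
7 members, all H4, among them Hist1h4d: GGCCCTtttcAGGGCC
6 members, among them Hist1h2bk and Hist1h3c: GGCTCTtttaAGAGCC
2 members, Hist1h4b and Hist1h4j: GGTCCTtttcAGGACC

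The first base of the stem-loop lay 22 to 59 nt after the stop codon, with a median of 32.5 nt. The poly(A) signal AATAAA, searched on the same strand in the same 300 nt, was present in 6 of the 50 members against 32.4% of protein-coding genes. The search ends with the annotated tail, which is shorter than 300 nt in 29 of the 50 members, so these shares depend on tail length. A comparison added after seeing the data took genes with a tail of at least 300 nt. In their first 300 nt, 1 of 21 members (Hist1h2be) and 19.1% of protein-coding genes held AATAAA. This does not cover later sequence. Within 1000 nt AATAAA was present in 14 of the 50 members, against 63.1% of protein-coding genes. In Hist1h2bc it begins 296 nt after the stop codon and so runs past the limit. In Hist1h1c it begins at 855 of 880 nt and in Hist3h2a at 1667 of 1700 nt. All 6 of the 50 with AATAAA within 300 nt also held the stem-loop: Hist1h1t, Hist1h2ae, Hist1h2be, Hist1h2bp, Hist1h4a and Hist3h2ba. The 6 members with a tail but without these stem-loop letters were Hist1h1a, Hist1h2bc, Hist1h2bq, Hist1h2br, Hist2h2be and Hist2h3b. The tails of Hist1h1a and Hist2h3b are annotated for only 48 and 37 nt. Hist1h2bc, Hist1h2bq and Hist1h2br have spliced transcripts, and only spliced sequence was searched. Absence of the letters from these short or spliced sequences therefore does not show that the genes lack a stem-loop. Neither limit applies to Hist2h2be, which has 1 exon and an annotated tail of 2192 nt. The letters were absent from its first 1000 nt after the stop codon, and only these exact letters were searched. The other 14 members have no annotated tail of at least 16 nt, so nothing can be read from them. Outside the members, the letters were found in H2afx, whose product marks DNA breaks and whose gene is known to make both stem-loop and polyadenylated mRNA, in H2bfm, and in 8 further genes.

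Upstream of the genes, RefSeq windows (GRCm38.p6, 250 bases before to 50 after the start) were matched for 59 members. CCAAT on either strand was present in 50 of 59 (84.7%), against 41.1% of the 27025 genes with a window. Every H1, H2A, H2B and H3 member with a window had it, but only 3 of 12 H4 members. The TATA letters TATAAA on the gene strand were present in 30 of 59 (50.8%), against 9.77%. ATTTGCAT, the octamer bound by OCT1, on either strand, was present in 12 of 59 (20.3%), against 1.97%. These were 7 of 18 H2A and 5 of 13 H2B members and no H1, H3 or H4 member. Head-to-head H2A and H2B genes have overlapping windows and near copies have near-identical ones, so members are not independent here.

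The 250 bases before the start of the 4 most abundant members are given, on the strand of the gene, with the searched letters in capitals (CCAAT, or ATTGG on the other strand; TATAAA; and ATGCAAAT, the octamer on the other strand).
Hist1h2ap, chr13:21833476-21833725, minus strand: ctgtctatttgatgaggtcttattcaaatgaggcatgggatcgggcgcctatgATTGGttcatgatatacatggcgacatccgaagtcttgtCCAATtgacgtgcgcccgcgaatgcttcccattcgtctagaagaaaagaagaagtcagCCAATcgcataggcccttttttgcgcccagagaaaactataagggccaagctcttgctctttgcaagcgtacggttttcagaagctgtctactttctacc
Hist3h2ba, chr11:58948661-58948910, plus strand: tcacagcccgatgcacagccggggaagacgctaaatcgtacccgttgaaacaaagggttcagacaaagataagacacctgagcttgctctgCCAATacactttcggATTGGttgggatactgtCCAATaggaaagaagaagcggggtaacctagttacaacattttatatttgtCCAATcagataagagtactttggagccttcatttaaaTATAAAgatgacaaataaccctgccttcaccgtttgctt
Hist1h4d, chr13:23581318-23581567, plus strand: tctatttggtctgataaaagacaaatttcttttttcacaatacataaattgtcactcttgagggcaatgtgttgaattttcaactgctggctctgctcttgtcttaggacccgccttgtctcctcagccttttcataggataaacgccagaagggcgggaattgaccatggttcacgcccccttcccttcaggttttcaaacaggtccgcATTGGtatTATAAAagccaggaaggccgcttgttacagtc
Hist3h2a, chr11:58954435-58954684, plus strand: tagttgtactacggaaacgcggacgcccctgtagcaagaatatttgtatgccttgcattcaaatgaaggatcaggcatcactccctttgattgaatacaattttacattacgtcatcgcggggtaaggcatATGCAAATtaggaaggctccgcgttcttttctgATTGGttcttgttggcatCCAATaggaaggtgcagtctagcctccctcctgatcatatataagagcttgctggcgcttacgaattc

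TATAAA began 39 bases before the start in Hist3h2ba and 32 bases before it in Hist1h4d. The windows of Hist1h2ap and Hist3h2a, also highly abundant, do not hold these 6 letters, and Hist3h2a holds the octamer 119 bases before its start. Levels overlapped between members with and without a motif. The median was 3.78 TPM for the 30 with TATAAA (21 detected) and 4.25 TPM for the 29 without it (21 detected). For the octamer the medians were 3.68 TPM over 12 members with it and 4.25 TPM over 47 without it. The 9 members without CCAAT, all H4, had a median of 1.00 TPM and 4 detected, against 4.27 TPM and 38 detected of 50.

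Cluster histone RNA was measured in both midbrain libraries, in very unequal shares among the members. In TPM, which divides reads by length and so allows genes to be compared, the 64 members summed to 2736 in replicate 1 and 2836 in replicate 2. That was 0.301% ± 0.0169 (SD, n = 2) of the TPM of all genes. A gene was called detected at 1 TPM or more in both libraries; 47 of 64 members (73.4%) met this, against 60.2% of protein-coding genes. The median member stood at 4.24 TPM, and the median over all protein-coding genes was 4.46 TPM. In whole tissue, few cells with much histone RNA and many cells with little cannot be told apart. Nor can a low amount and a low capture of RNA without poly(A), since the labels do not say how the cDNA was primed.

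4 members held most of this RNA: Hist1h2ap, Hist3h2ba, Hist1h4d and Hist3h2a, which together made up 77.8% of the summed TPM in replicate 1 and 78.6% in replicate 2. The 4 were the members with a mean over 100 TPM (6.25%, against 7.48% of protein-coding genes), and 18 reached 10 TPM (28.1%, against 40.7%). At 5 TPM or more in both libraries there were 26 members, against 48.0% of protein-coding genes. The other 60 members summed to 608 and 607 TPM. Hist1h2ap, Hist3h2ba and Hist1h4d led the H2A, H2B and H4 families, and Hist3h2a came second among H2A genes.

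**Figure D1:**
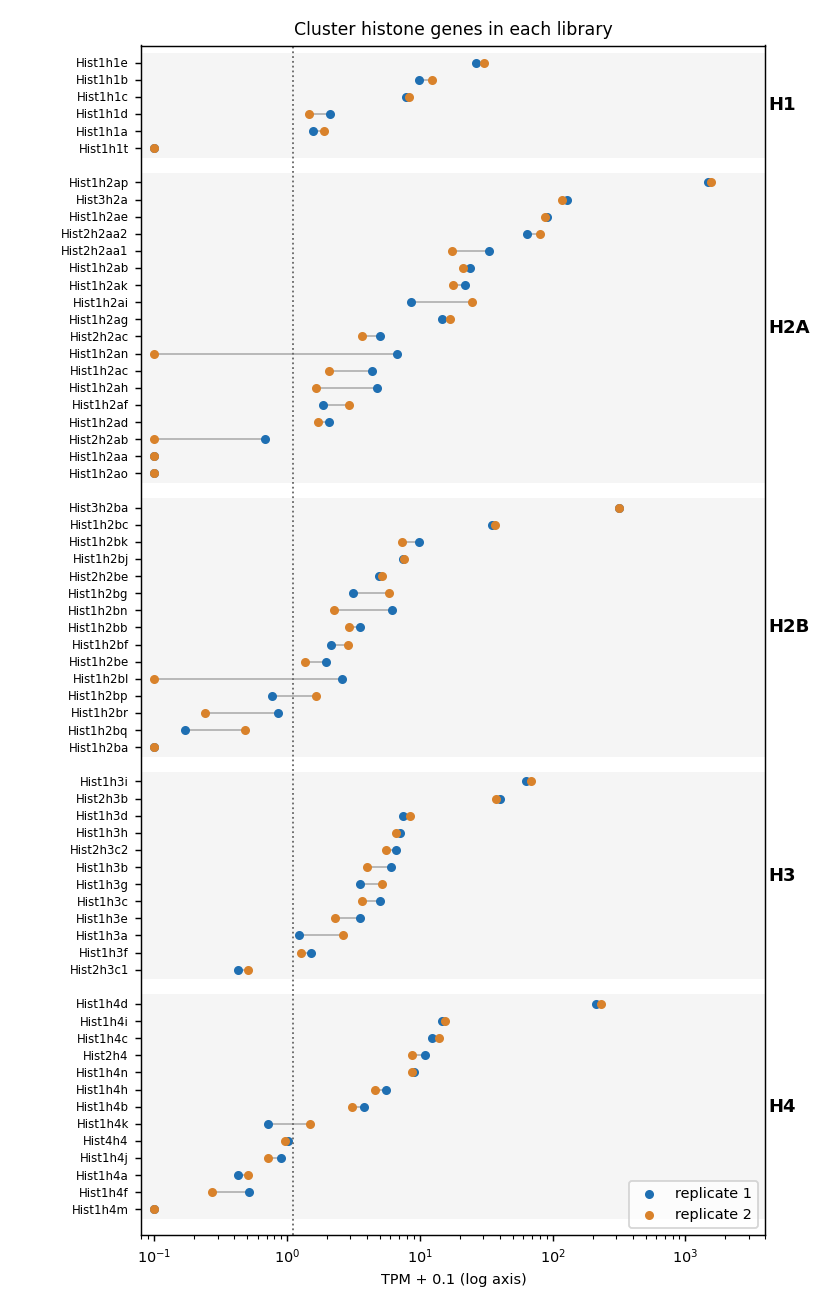
TPM + 0.1 (log axis) of each of the 64 members in replicate 1 (blue) and replicate 2 (orange), ordered by mean within H1, H2A, H2B, H3 and H4; grey lines join the libraries and the dotted line marks the detection minimum of 1 TPM. One or few members stand far to the right in each family (Hist1h2ap at 1473.46 and 1566.7 TPM), and the joined points spread widely only among low members.

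H1, the linker histone, was the lowest family by sum, at 47.4 and 54.0 TPM (50.7 ± 4.65). Hist1h1e, the H1.4 gene, had 26.56 TPM in replicate 1 and 30.45 TPM in replicate 2, and made up 56.0% and 56.4% of the family. Hist1h1b, the H1.5 gene, had 9.69 and 12.2 TPM, and Hist1h1c, the H1.2 gene, 7.71 and 8.20 TPM. The values of these 3 had the same order in both libraries, though the deposited intervals of Hist1h1b (7.81 to 11.1 TPM) and Hist1h1c (6.56 to 8.54 TPM) overlapped in replicate 1. Hist1h1d (H1.3) at 1.99 and 1.35 TPM and Hist1h1a (H1.1) at 1.47 and 1.79 TPM exchanged places between the libraries, so their order is not set. Hist1h1t, the testis H1, had no read in either library, which allows up to 0.238 and 0.178 TPM at 3 reads. Of 3 germ line and testis markers in the same libraries, 0 were detected. Hist1h1e was 3.54-fold over Hist1h1c on the log2(TPM + 0.1) scale (log2 1.83, SE 0.09, limma adjusted p = 9.31e-05) and 16.6-fold over Hist1h1a (log2 4.05, SE 0.09, limma adjusted p = 1.6e-05). These tests compare 2 genes inside each library with limma's moderated two-sided test, adjusted over 6483 pairs, and cover only the spread between these libraries. The 6483 pairs are 19 pairs of histone-related genes, of which 16 passed, and pairs of detected protein-coding genes. The latter were taken 2 by 2 in the order of their identifiers, not of their positions. Over all of them 90.3% passed, so the count of passing pairs is close to the background and the sizes carry the description.

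H2A was the family with the highest sum, 1882 and 1961 TPM (1922 ± 55.8), or 68.8% and 69.1% of all cluster histone RNA. Hist1h2ap (ENSMUSG00000094777, chr13:21833026-21833507, minus strand, 1 exon) alone had 1473.46 TPM in replicate 1 and 1566.7 TPM in replicate 2, 1520 ± 65.9, from 11310 and 16042.8 estimated reads. It ranked 32 among the protein-coding genes and made up 78.3% and 79.9% of the H2A sum. Hist3h2a came next with 128.22 and 118.2 TPM, and then Hist1h2ae with 90.76 and 87.47 TPM. Hist2h2aa2 had 63.61 and 80.01 TPM, Hist2h2aa1 had 32.99 and 17.24 TPM, and Hist1h2ab had 23.8 and 21.16 TPM. The values of Hist1h2ap to Hist2h2aa2 kept their order in both libraries, while Hist2h2aa1 and Hist1h2ab exchanged places. In replicate 2 the deposited intervals of Hist1h2ae (77.5 to 93.9 TPM) and Hist2h2aa2 (69.5 to 87.7 TPM) overlapped. Hist2h2aa1 and Hist2h2aa2, identical in coding sequence, together had 96.6 and 97.2 TPM. Without Hist1h2ap the H2A sum was 409 and 394 TPM. The lowest detected H2A member was Hist1h2ad at 1.98 and 1.62 TPM. Hist1h2aa, the testis H2A, had no reads in either library, which allows up to 0.514 and 0.386 TPM. Hist1h2ao was listed at 0, but it is a copy of Hist1h2ap, and the upper bounds that the authors deposited for it, with no level stated, are 6.42 and 6.10 TPM. Hist1h2an, with 6.61 TPM in replicate 1 and 0 in replicate 2, and Hist2h2ab, with 0.58 and 0 TPM, also did not count as detected.

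H2B summed to 391 and 388 TPM (390 ± 2.36), of which Hist3h2ba (ENSMUSG00000056895, chr11:58948920-58949533, plus strand, 1 exon) gave 80.3% and 81.0%. Hist3h2ba stood at 313.98 TPM in replicate 1 and 314.17 TPM in replicate 2, and its RNA shares no 100-base stretch with another member. Hist1h2bc followed at 34.76 and 36.93 TPM. Hist1h2bk had 9.83 and 7.23 TPM, Hist1h2bj 7.37 and 7.54 TPM, Hist2h2be 4.79 and 5.12 TPM and Hist1h2bg 3.06 and 5.79 TPM. The order below Hist1h2bc was not the same in both libraries. Hist1h2be, the lowest detected H2B member, had 1.88 and 1.26 TPM. Hist1h2ba, the testis H2B, was listed at 0, with deposited upper bounds of 0.74 and 0.55 TPM, and Hist1h2bl, Hist1h2bp, Hist1h2bq and Hist1h2br missed detection. The tables gave all of Hist1h2br to a transcript of 1256 nt in replicate 1 and to another of 2197 nt in replicate 2. By limma's test Hist1h2bc was 11.2-fold over Hist1h2bb (log2 3.49, SE 0.13, adjusted p = 3.93e-05) and 7.11-fold over Hist2h2be of the Hist2 cluster (log2 2.83, SE 0.09, adjusted p = 2.68e-05).

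H3 summed to 144 and 145 TPM (145 ± 0.827) and had the highest share of detected members, 11 of 12. Hist1h3i led with 62.81 and 68.86 TPM, 43.6% and 47.4% of the family, followed by Hist2h3b with 39.84 and 37.26 TPM. These stood clear of the rest in both libraries. Hist1h3d had 7.36 and 8.27 TPM, Hist1h3h 6.96 and 6.51 TPM, Hist2h3c2 6.48 and 5.43 TPM and Hist1h3b 5.92 and 3.93 TPM. Among these the order of the values held in each library, but in replicate 2 Hist1h3g, at 5.11 TPM, stood above Hist1h3b. The deposited intervals of Hist1h3d (4.73 to 9.95 TPM) and Hist1h3b (3.55 to 8.21 TPM) overlapped in replicate 1. The deposited SD of the count of Hist1h3h was 34.3% and 29.2%, wider than its distance to either neighbour. Hist1h3f was the lowest detected member at 1.42 and 1.18 TPM. Hist2h3c1, whose coding sequence is identical to that of Hist2h3c2, was the 1 member of the family not detected, at 0.33 and 0.41 TPM.

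H4 summed to 271 and 288 TPM (280 ± 12.1), and 7 of 13 members were detected, the lowest share of any family. Hist1h4d (ENSMUSG00000061482, chr13:23581598-23582735, plus strand, 1 exon) had 212.45 TPM in replicate 1 and 230.78 TPM in replicate 2, 78.4% and 80.1% of the family. Its value rests on a transcript of 393 nt in the annotation the authors used, while GENCODE M21 gives 1138 nt. Hist1h4i had 14.53 and 15.38 TPM, Hist1h4c 12.25 and 13.73 TPM, and Hist2h4 10.79 and 8.67 TPM. Hist1h4n had 8.89 and 8.63 TPM and Hist1h4h 5.43 and 4.53 TPM; these 6 kept their order in both libraries, with Hist2h4 and Hist1h4n nearly level in replicate 2. Hist1h4b was the lowest detected at 3.67 and 3.0 TPM. Hist1h4h was 10.8-fold over Hist1h4a, itself not detected at 0.33 and 0.41 TPM (log2 3.43, SE 0.15, limma adjusted p = 6.26e-05). That fold rests on 2.9 and 4.8 reads of Hist1h4a and on the added constant, and it was 4.35-fold with a pseudocount of 1. Hist1h4m, identical in coding sequence to Hist1h4n, was listed at 0 in both libraries, with deposited upper bounds of 2.36 and 1.69 TPM. Hist4h4, the sole gene of its cluster, stayed at 0.92 and 0.87 TPM, although its 2879 nt collected 51.0 and 65.0 reads.

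The sums of the families were far from equal, although the core histones enter the octamer in equal numbers. This holds for RNA as quantified here and was not measured for protein. The H2B sum lacks Hist1h2bh, Hist1h2bm and Hist2h2bb, which have no value here, while no other family lacks an annotated member. Without the highest gene of each family the sums came closer together, at 402 ± 10.2 TPM for H2A, 78.8 ± 3.45 for H3, 75.5 ± 2.50 for H2B, 58.0 ± 0.891 for H4 and 22.2 ± 1.90 for H1.

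**Figure D2:**
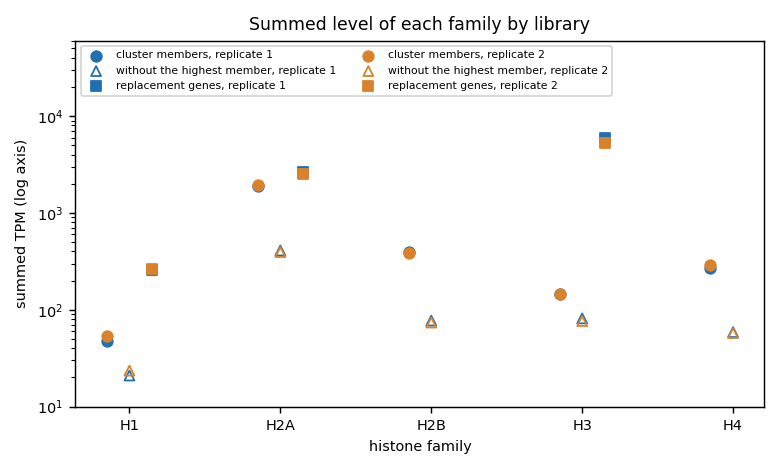
Summed TPM (log axis) of the cluster members of each histone family (circles), of the same members without the highest one (open triangles) and of the replacement genes of H1, H2A and H3 (squares), in replicate 1 (blue) and replicate 2 (orange). Replacement genes lie above cluster genes in all 3 families, by 38.8-fold for H3 and 1.34-fold for H2A.

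By cluster, Hist1 on chromosome 13 (chr13:21715763-23934851) holds 52 members, of which 38 were detected, and summed to 2187 ± 82.6 TPM with a median of 3.32 TPM. Hist2 on chromosome 3 (chr3:96219865-96269141) holds 9 members, of which 7 were detected, and summed to 161 ± 4.68 TPM with a median of 5.96 TPM. Hist3 on chromosome 11 (chr11:58948920-58956830) holds only Hist3h2a and Hist3h2ba, both detected, and summed to 437 ± 6.95 TPM. With 2 genes it thus exceeded the 9 genes of Hist2 in both libraries. By limma's test Hist3h2ba was 2.55-fold over Hist3h2a (log2 1.35, SE 0.09, adjusted p = 0.000243). This direction depends on the annotated lengths, 614 nt for Hist3h2ba and 2146 nt for Hist3h2a, since Hist3h2a had more reads. The stem-loop of Hist3h2a begins 42 nt after its stop codon, and AATAAA first begins 1667 nt after it, in an annotated tail of 1700 nt. Which form of its mRNA was sequenced was not tested. Hist4 on chromosome 6 holds Hist4h4 only.

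Replacement histone genes outweighed the cluster genes where both exist. All 11 genes of the list were detected, with a median of 287 TPM. H3f3a stood at 3452.42 and 3204.38 TPM and H3f3b at 2400.07 and 2015.91 TPM; both encode H3.3, the replacement H3. With Cenpa, the centromeric H3, at 82.6 ± 2.75 TPM, the H3 replacement genes summed to 5619 ± 450 TPM, 38.8-fold the cluster H3 genes (log2 cluster over replacement −5.28 ± 0.12). For H1 the sum of H1f0 at 244 ± 3.29 TPM and H1fx at 18.5 ± 1.99 TPM was 5.19-fold the cluster sum (−2.38 ± 0.10). H1f0, linked to cells that have stopped dividing, was 30.3-fold over Hist1h1c (log2 4.92, SE 0.09, limma adjusted p = 1.53e-05). For H2A the replacement sum of 2582 ± 114 TPM was 1.34-fold the cluster sum (−0.43 ± 0.11), and without Hist1h2ap the log2 ratio was −2.68. The H2A replacement genes were H2afz at 1245 ± 93.7 TPM, H2afv at 486 ± 9.31, H2afy at 343 ± 4.87, H2afy2 at 287 ± 18.3, H2afx at 162 ± 3.34 and H2afj at 60.2 ± 0.615. H2afz, the main H2A.Z gene, was 2.56-fold over H2afv, the second H2A.Z gene (limma adjusted p = 0.000238), and 7.69-fold over H2afx (limma adjusted p = 3.3e-05). H3f3a was 1.51-fold over H3f3b (limma adjusted p = 0.00438). H2afy was 1.20-fold over H2afy2, both macroH2A genes, with a difference that did not pass (log2 0.26, SE 0.10, limma adjusted p = 0.0642). Cluster mRNAs mostly lack a poly(A) tail, while replacement mRNAs carry one, H2afx being known to make both kinds. The labels do not say how the cDNA was primed, and its part in these ratios was not tested.

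Other RNAs known to lack a poly(A) tail were measured in the same libraries. 5 of 6 were detected: Rn7s1 and Rn7s2, near copies of the signal recognition particle RNA, at 15255 ± 1224 TPM each, Rn7sk at 449.07 and 460.55 TPM, Rpph1, the RNase P RNA, at 112.5 and 121.9 TPM, and Rmrp at 4.23 and 5.95 TPM. Terc, the telomerase RNA, had 0.31 and 0.46 TPM and was not detected.

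The genes that act on the cluster genes and their mRNAs were all present. Of the 14 genes for histone transcription and 3′ end processing, 14 were detected, with a median of 24.5 TPM. Slbp, which binds the stem-loop, had 127.1 and 115.86 TPM. Npat, the coactivator of histone gene transcription, had 11.09 and 10.71 TPM, Hinfp, which activates H4 genes, 19.62 and 18.86 TPM, Casp8ap2 (FLASH) 46.02 and 46.36 TPM and Pou2f1 (OCT1) 21.32 and 21.53 TPM. The U7 proteins Lsm10 and Lsm11 had 38.7 ± 3.93 and 12.8 ± 0.290 TPM, and Slbp was 9.43-fold over Lsm11 (log2 3.24, SE 0.10, limma adjusted p = 2.55e-05). The cleavage factors Cpsf3 (83.1 ± 4.62 TPM), Cstf2 (53.0 ± 1.19), Cpsf2 (29.0 ± 2.81) and Sympk (27.7 ± 2.21) also serve ordinary mRNAs. Eri1, an exonuclease of histone mRNA ends, had 16.3 ± 0.403 TPM, and Upf1, which acts in histone mRNA decay, 13.1 ± 1.01 TPM. Zfp473, a zinc finger protein of U7-dependent processing, was the lowest at 1.00 and 1.08 TPM.

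All 11 histone chaperone genes were detected, with a median of 51.0 TPM. Atrx (224 ± 19.4 TPM) and Daxx (45.7 ± 0.912) deposit H3.3, Ssrp1 (176 ± 7.04) and Supt16 (54.3 ± 4.96) form FACT, and Nap1l1 stood at 169 ± 13.9 TPM. Nasp, which holds H3 and H4, had 112 ± 13.5 TPM, Asf1a 51.0 ± 2.74 and Asf1b 20.3 ± 1.09. The chromatin assembly factor genes Chaf1b and Chaf1a, which act behind the replication fork, had 26.8 ± 2.09 and 10.9 ± 0.0919 TPM, and Hira, which deposits H3.3, 13.5 ± 0.827. The 11 genes of DNA synthesis, all detected, had a median of 66.3 TPM, from Tk1 at 28.5 ± 0.0495 to Rrm2 at 131 ± 16.9 TPM. Pcna, the replication clamp, had 129 ± 9.48 TPM and Mcm7, of the replicative helicase, 128 ± 2.33 TPM. Mcm6 had 75.2 ± 2.60, Tyms 73.1 ± 0.891, Rrm1 66.3 ± 1.97 and Mcm2 54.4 ± 1.38 TPM, while Mcm3, Mcm4 and Mcm5 stood at 39.9 TPM each. The median cluster histone gene, at 4.24 TPM, lay below the lowest DNA synthesis gene. The cluster genes form families of many copies whose mRNAs mostly lack poly(A), and the part of either in this difference was not tested.

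Genes for H2A and H2B often lie head to head and share the stretch between their starts. There were 12 such pairs with starts 176 to 306 nt apart, and in 7 both members were detected. Among these 7 the H2A gene was higher in both libraries in 3 pairs, the H2B gene in 3, and 1 pair differed in direction between the libraries. Hist1h2ap at 1473.46 and 1566.7 TPM faces Hist1h2br at 0.75 and 0.14 TPM across 236 nt. Hist1h2ap has the same coding sequence as Hist1h2ao, and Hist1h2br the same as Hist1h2bq. The values of these 2 pairs thus depend on how the deposited tables divided shared reads. Of the 7 pairs with both members detected, 5 passed limma's test, against 90.3% of all 6483 pairs tested. Hist1h2ae was 20.7-fold over Hist1h2bg (log2 4.37, SE 0.25, adjusted p = 0.000133), and Hist1h2ak 5.24-fold over Hist1h2bn (adjusted p = 0.00175). In the other direction Hist1h2bc was 12-fold over Hist1h2ac (adjusted p = 0.000464) and Hist1h2bk 3.05-fold over Hist1h2ah (adjusted p = 0.00609). The count of Hist1h2ah had a deposited SD of 57.7% and 94.3%, and its deposited TPM intervals overlapped those of Hist1h2bk in both libraries, which the test does not include. Hist1h2ag was 2.08-fold over Hist1h2bj (adjusted p = 0.000657), the smallest difference that passed among the 7. The deposited intervals of Hist1h2ag (9.18 to 21.2 TPM) and Hist1h2bj (4.88 to 9.77 TPM) overlapped in replicate 1. The count of Hist1h2ag had a deposited SD of 19.5% and 16.5%, which the test does not include either. Hist1h2ad and Hist1h2bf (log2 −0.39, SE 0.20, limma adjusted p = 0.13) and Hist2h2ac and Hist2h2be (log2 −0.24, SE 0.16, limma adjusted p = 0.23) did not pass, which does not show that they were equal.

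**Figure D3:**
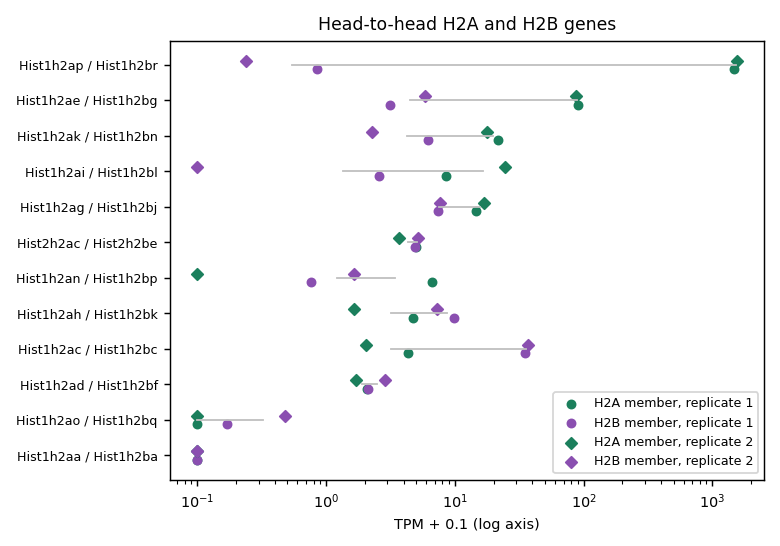
TPM + 0.1 (log axis) of the H2A gene (green) and the H2B gene (purple) of 12 head-to-head pairs, in replicate 1 (circles) and replicate 2 (diamonds), with a grey line between the means. The points of Hist1h2ap lie at the right end of the axis and those of Hist1h2br below 1, and those of Hist2h2ac and Hist2h2be overlap.

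Near copies limit how far single members can be read. Of the 64 members, 54 share at least 1 stretch of 100 bases with another member and 10 share none. The median share of such windows was 33.6%. Not all of this sharing is between near copies. The annotated spans of Hist1h2be and Hist1h1e overlap on the minus strand of chromosome 13, and the genes share 397 such windows. The deposited tables divide reads that fit several genes among them, and give for each gene an SD of its count from that division. Among members with at least 10 reads, the median SD was 15.8% of the count in replicate 1 and 15% in replicate 2 where at least 50% of the windows were shared, and 6.01% and 6.19% below that. Over protein-coding genes the median was 0%. The windows and the SD both follow from the same sequences, so this is a description of the method. Single cases stood apart: Hist1h2ap, with 92.2% of its windows in another member, had an SD of only 0.374% and 0.293%, while Hist2h3c1, with 32.9%, had 74.3% and 76.1%.

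**Figure D4:**
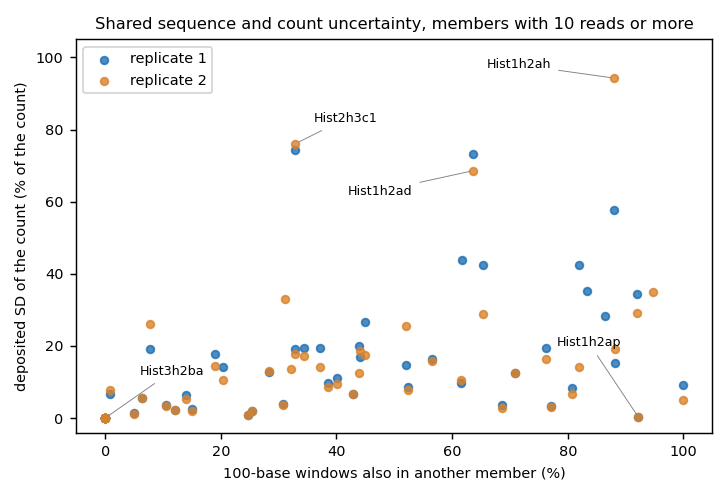
Deposited SD of a member's count, in percent of the count, against the percentage of its 100-base windows that occur in another member, for members with at least 10 reads in replicate 1 (blue) and replicate 2 (orange). Members without shared windows, such as Hist3h2ba, lie near 0%, and Hist1h2ah, with 87.9% shared, reaches 94.3% in replicate 2.

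Hist1h2ap and Hist1h2ao are the case that matters most. Their 393 coding bases are identical, with 0 differences, and 92.7% of the windows of Hist1h2ao occur in another member. The tables gave all the reads to Hist1h2ap and listed Hist1h2ao at 0 in both libraries. The 250 bases before the starts of Hist1h2br and Hist1h2bq, the H2B genes that face them, are identical too, with 0 differences over 250 bases. Of the 383 windows of Hist1h2ap, 353 occur in Hist1h2ao. The deposited division of the 1520 ± 65.9 TPM was nearly one-sided. The count SD of Hist1h2ap was 0.374% and 0.293%, and the upper bounds of Hist1h2ao were 6.42 and 6.10 TPM. Whether this division is right was not tested. Hist1h2ap also links to Hist1h2ag by shared windows, and the 3 genes together had 1488 and 1583 TPM. The other identical coding sequences were those of Hist2h2aa1 and Hist2h2aa2, Hist2h3c1 and Hist2h3c2, Hist1h4m and Hist1h4n, and Hist1h2bq and Hist1h2br.

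The libraries were compared last, on counts scaled with edgeR's TMM factors, by a rule of size, since 1 library on each side allows no test. Of the 29 members that averaged 50 or more reads, 1 differed by 2-fold or more, against 0.724% of all genes. The same 1 was higher in replicate 2, against 0.508% of all genes. This was Hist1h2ai, with 8.41 TPM from 49.5 reads in replicate 1 and 24.51 TPM from 192.7 reads in replicate 2, 2.97-fold (exact Clopper-Pearson interval 2.18 to 4.16, counting error only). The deposited SD of its count was 42.4% and 14.2%, and 82% of its windows occur in another member. Its near copy Hist1h2an moved the other way, from 38.9 reads to 0. Together the near copies Hist1h2ab, Hist1h2ad, Hist1h2af, Hist1h2ah, Hist1h2ai and Hist1h2an had 47.2 TPM in replicate 1 and 51.7 TPM in replicate 2, 1.10-fold (interval 0.949 to 1.27). Hist2h2aa1 and Hist2h2aa2 behaved alike: Hist2h2aa1 had 32.99 and 17.24 TPM and Hist2h2aa2 63.61 and 80.01 TPM, while their sum was 96.6 and 97.2 TPM. With 8 groups of near copies summed, a comparison chosen after seeing the data, 0 of 24 units that averaged 50 or more reads differed by 2-fold.

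**Figure D5:**
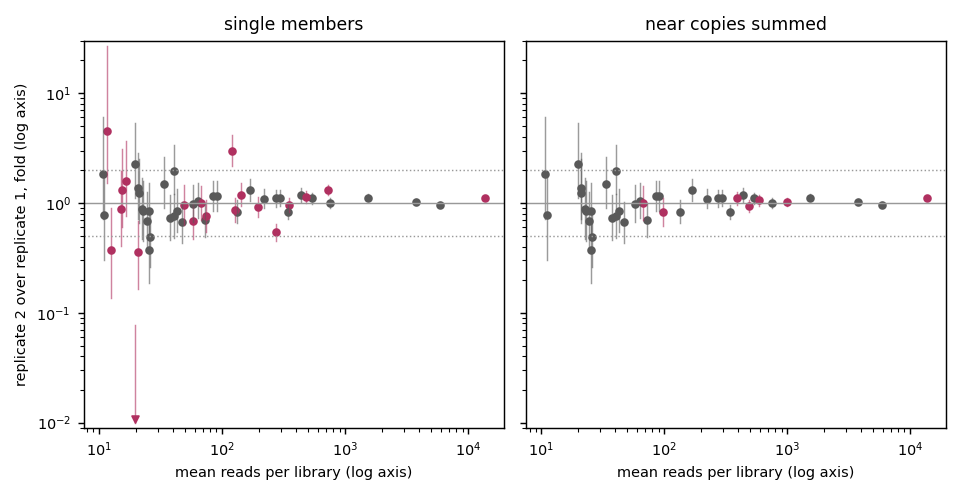
Fold of replicate 2 over replicate 1 (log axis) against mean reads per library (log axis) for members with at least 10 reads (left) and with near copies summed (right); red points belong to groups of near copies, vertical lines are exact 95% Clopper-Pearson intervals for counting error, dotted lines mark 2-fold and the triangle is Hist1h2an, with 0 reads in replicate 2. Red points outside the dotted band on the left have no counterpart outside it on the right, while the grey points of Hist1h2ac, Hist1h2bn and Hist1h3a lie outside it in both.

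At a mean of 10 or more reads, 8 members were past 2-fold, against 2.99% of all genes, and 5 of the 8 belong to groups of near copies. The other 3, in no such group, were Hist1h2ac (0.488-fold), Hist1h2bn (0.37-fold) and Hist1h3a (2.25-fold). They too share windows with other members: 7.68%, 52.1% and 32.2%. The deposited SD of the count in replicates 1 and 2 was 19.3% and 26.0% for Hist1h2ac. It was 14.7% and 25.6% for Hist1h2bn and 26.8% and 13.5% for Hist1h3a. At 1.5-fold and 50 or more reads, 2 were past, Hist1h2ai and Hist2h2aa1, against 3.31%. Across the 54 members that averaged 10 or more reads the median log2 ratio was −0.02, with 25 higher and 29 lower in replicate 2, and over all 17703 such genes it was 0.0. The median size of the log2 ratio was 0.27 for members and 0.12 for all genes, with a median count of 60.9 for members against 644 for all genes. At a mean count of at least 50 these sizes were 0.18 and 0.10. The 4 most abundant members differed little: 1.10-fold for Hist1h2ap, 1.03-fold for Hist3h2ba, 1.12-fold for Hist1h4d and 0.952-fold for Hist3h2a.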

How the data were processed

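Total RNA of 2 embryonic midbrain libraries, 1 group, was quantified by the authors on assembly mm10 with GENCODE M4, as their deposited notes say. RSEM's column names are used. For the aligner, versions, filters, priming and use of strand, the sources used here say nothing, so reads of a gene and an overlapping antisense partner cannot be told apart. The deposited expected counts are estimates per gene that need not be whole, since reads that fit near copies are divided. The deposited TPM values are scaled per effective length to 1 common total over genes, tRNA entries and spike-ins, per the file headers and sums. The deposited FPKM values are per length and aligned reads, and the deposited percent values give each transcript's share of its gene, per the file headers. The SD of each count and the TPM interval bounds were also deposited by the authors. For members the effective length was the length minus 99 nt.

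Symbols, types and positions came from GENCODE M21 on the same assembly (GRCm38), joined on unversioned Ensembl identifiers (42462 of 43346 genes). Tail letters were read from M21 transcripts after the stop codon, not from a genome, and promoters from RefSeq windows matched through Entrez identifiers. Near copies were linked where at least 50% of the 100-base windows of 1 occur in the other.

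Families, clusters and lists were described by sums and medians. Pairs of genes were tested on log2(TPM + 0.1), which understates differences of low genes, with limma 3.58.1 (R 4.3.3) and Benjamini-Hochberg adjustment over all 6483 pairs at 0.05. Between libraries, expected counts were rounded and scaled with TMM in edgeR 4.0.16, with 0.5 added. A gene counted at a 2-fold difference with a mean count of at least 50, since no test is possible. Exact intervals have a level of 95% and, like limits from 3 reads, cover counting error only, since without molecular identifiers several reads can stem from 1 molecule. Nothing in the labels says more than that the libraries are separate biosamples, so SDs and p-values measure only the spread between these 2.

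The members, lists and pairs were chosen with earlier results of these data known. Named are all H1 members, the 6 highest and the lowest detected of the other families, members at 0, those past 2-fold, genes of the pairs and the genes of the pathway lists. As alternatives, library totals, size factors of DESeq2 1.42.0, FPKM, annotated lengths, raw expected counts, other minimums, pseudocounts, folds, windows and distances, and each library alone were tried. The pair test and the 2-fold rule were also tested on simulated data. The sums of near copies, the values without Hist1h2ap and the search of longer tails were added after seeing the data.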

Additional observations from a re-analysis of the deposited data

Results flagged for a closer look

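Reads on histone pseudogenes, which lie outside the protein-coding members, exceeded the 3 reads that a count of 0 allows in 3 cases. Hist1h2aj, an unprocessed pseudogene of the Hist1 cluster, had 73.7 reads (14.54 TPM) in replicate 1 and 0 in replicate 2. Over the same libraries the nearby Hist1h2ai had 49.5 and 192.7 reads. Hist3h2bb-ps, a processed pseudogene that lies between Hist3h2ba and Hist3h2a, had 26.3 reads in replicate 1 and 16.2 reads in replicate 2. A division of reads among copies and transcription of the pseudogenes cannot be told apart in these tables. With 2 libraries in the group, no library was tested for standing apart from the others.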

How the results depend on the processing

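No paired analysis was possible because both libraries belong to 1 group. The limits here are 2 libraries, short mRNAs, near copies and an annotation that misses tails. Results that moved are given with their value, and the cause was not tested unless the alternative's own construction shows it. At a minimum of 5 TPM, 26 members were detected, against 48.0% of protein-coding genes. The share of members in all genes was 0.0881% of expected counts, 0.27% of TPM with annotated lengths and 0.137% without Hist1h2ap. Family sums in FPKM, a smaller unit, were 32.0 for H1, 1212 for H2A, 246 for H2B, 91.2 for H3 and 176 for H4. With annotated lengths they were 1863 TPM for H2A, 393 for H2B, 137 for H3 and 257 for H4, and H2A without Hist1h2ap was 402 TPM. The log2 ratios of cluster to replacement genes were −2.50 for H1, −0.61 for H2A and −5.50 for H3 with annotated lengths, and −3.83, −1.67 and −6.89 with expected counts and no length. Without Hist1h2ap the H2A ratio was −2.68. List medians in FPKM were 181 for replacement histones, 15.5 for transcription and 3′ processing, 32.1 for chaperones, 41.8 for DNA synthesis and 180 for RNAs without poly(A). The median of the processing list was 23.7 and 24.3 TPM with replicate 2 and replicate 1 left out.

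Members past 2-fold numbered 8 at a mean count of 10, 2 at 1.5-fold and 0 with near copies summed. The median log2 ratio of members changed sign at a count minimum of 50 (0.06) and with near copies summed (0.02). AATAAA was found in 2 of 50 members within 150 nt and in 14 within 1000 nt, against 17.2% and 63.1% of protein-coding genes. Where the annotated tail reaches 300 nt it was found in 1 of 21 members, against 19.1%. The stem-loop count stayed at 44, against 0.242% and 0.344% of protein-coding genes within 150 and 1000 nt. Of 152 values of single pairs under the alternatives, 147 kept their side, 4 came to pass the threshold and 1 reversed. The pair of Hist2h2ac and Hist2h2be had a log2 ratio of 0.03 without replicate 2 and −0.51 without replicate 1. All other main results kept their direction and stayed within 1.5-fold or 1 SD under the alternatives run (59 of 94 values).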

Other observations

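Lengths differ enough that reads and TPM rank the members differently. Hist3h2a collected 5260.3 and 6468.8 reads, more than Hist3h2ba with 3240.7 and 4325.8 reads. It stood lower in TPM, which divides by the annotated length, 2146 nt against 614 nt. Which form of Hist3h2a mRNA was sequenced was not tested. Of the 64 members, 42 have a length under 600 nt in the tables, and for 9 members the longest M21 transcript is over 1.5 times the length used.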
